A study of Mus musculus with 16 samples.

Results

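The 54 genes described here act in the making of ribosomes or belong to the metabolic and chaperone genes that the transcription factor Myc is known to drive. They were chosen by name, with earlier results of these data known. A probe was found for 48 of them. Of these, 45 were measured, meaning that a probe exceeded the negative controls (detection p under 0.05) on at least 4 of 16 arrays, and they were set beside all 9680 genes measured in the same way. Probes for Dkc1, Wdr36 and Wdr12 exceeded the controls on 0 arrays, and Polr1b, Utp18, Utp20, Wdr43, Nol8 and Noc2l were matched to no probe and were not analysed here. Of the 45, 40 were detected on all 16 arrays, 4 (Nol11, Rrs1, Rrp1 and Nolc1) on 15, and Nol9 on 14.

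Ribosomes are built in the nucleolus, where RNA polymerase I transcribes the precursor of the ribosomal RNAs. Small nucleolar ribonucleoproteins modify that precursor, and separate sets of factors then cut, fold and export the small and the large subunit. Myc raises polymerase I activity and many of these factors together with enzymes of polyamine and nucleotide synthesis, and the output of the process is tied to growth and division. In the marrow, resting stem cells are known for low rates of protein synthesis and cycling progenitors for higher ones.

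The samples were mouse haematopoietic cells enriched for stem cells, each read on an Illumina bead array, from animals of the C57B16 background as the labels spell it. Jak2VF cells, from knock-in mice, had the CD45.2 allele, and WT cells the CD45.1 allele. In every difference between Jak2VF and WT cells the mutation and the CD45 allele therefore cannot be told apart. The name Jak2VF stands for the activating form of the Jak2 kinase found in most patients with polycythemia vera. Treatment lasted 4 weeks and was either interferon alpha, 10000 units each day, or vehicle, with 4 arrays each of Jak2VF cells with interferon, Jak2VF cells with vehicle, WT cells with interferon and WT cells with vehicle. The array codes in the sample titles begin with 2 different numbers, which were taken here as 2 slides. The labels do not name them so, and each group had 2 arrays under each number. The labels give neither the promoter behind the knock-in allele nor whether each array held the cells of another animal, so the p-values rest on the spread between the 4 samples of a group, which may be technical. In such bulk samples fewer cells of a type and less RNA per cell cannot be told apart.

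The arrays differed in brightness, with a mean probe intensity of 602 to 1130 for Jak2VF cells with interferon, 391 to 616 for Jak2VF cells with vehicle, 294 to 1009 for WT cells with interferon and 162 to 414 for WT cells with vehicle. On the log2 scale the interferon arrays were brighter by 0.81 in Jak2VF and 1.13 in WT cells, and the Jak2VF arrays by 0.47 with interferon and 0.78 with vehicle. The 3 dimmest arrays were WT vehicle replicates 3 and 1 and WT interferon replicate 2. Between 31.9% and 50.8% of 25697 probes were detected per array. Of the stem cell surface markers, Ly6a was detected on all 16 arrays and Slamf1 on 15, whereas Procr was detected on 6, Hlf, a stem cell transcription factor, on 5, Fgd5 did not reach the detection filter, and Kit was matched to no probe and was not analysed here.

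The level of these genes was highest in Jak2VF cells with interferon and lowest in WT cells with vehicle. When each gene's normalized log2 intensity was centred on its own mean over the 16 arrays, the 45 genes averaged 0.42 ± 0.06 (SD, n = 4) in Jak2VF cells with interferon, −0.02 ± 0.06 in Jak2VF cells with vehicle, −0.10 ± 0.05 in WT cells with interferon and −0.31 ± 0.13 in WT cells with vehicle. The lowest Jak2VF interferon array stood at 0.37 and the highest of the other 12 arrays at 0.05. The highest group mean lay in Jak2VF cells with interferon for 43 of 45 genes, against 36.7% of all genes, and the exceptions were Imp3 and Nolc1. For 24 of them all 4 Jak2VF interferon arrays lay above the other 12, which held for 7.11% of all genes. The lowest mean fell in WT cells with vehicle for 29 genes, in WT cells with interferon for 14 and in Jak2VF cells with vehicle for 2, against 40.1%, 16.7% and 8.92% of all genes in the same order.

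**Figure D1:**
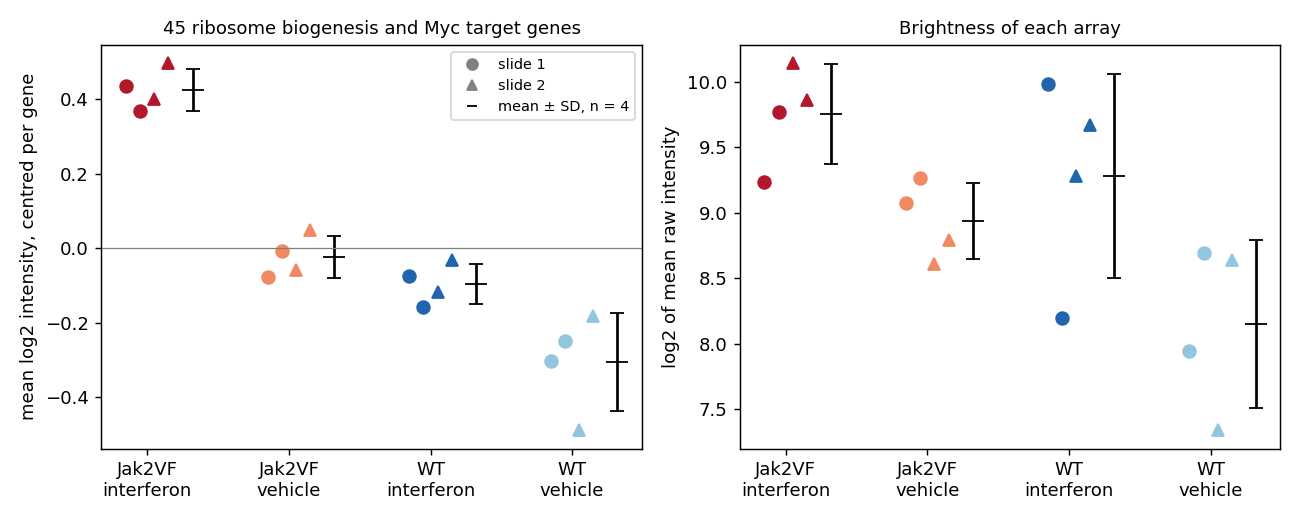
The left panel plots, for each array, the mean of the 45 ribosome biogenesis and Myc target genes as log2 intensity centred per gene, and the right panel the log2 of the array's mean raw intensity, with symbols for the slide and bars for the mean ± SD of 4 arrays. The 4 Jak2VF interferon arrays sit between 0.37 and 0.50 on the left, above all 12 others, while on the right their brightness overlaps with that of the Jak2VF vehicle and WT interferon arrays but lies above that of all 4 WT vehicle arrays.

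The promoters of several of these genes hold the E-box CACGTG, the core sequence that Myc with its partner Max is known to bind. In the RefSeq windows of GRCm38.p6, which run from 250 bases before to 50 after each gene's start, 10 of 46 listed genes with a window held it (21.7%), as did 2187 of 27025 genes in the whole table (8.09%). The motif equals its own reverse complement, so 1 search covers both strands. Among measured genes it was in 4 of 23 that were called in at least 1 comparison and in 3 of 15 that were called in none. The 4 windows that hold the motif in these called genes are shown, read 5′ to 3′ on the strand of the gene with the motif in capitals. They are Hspd1 (chr1:55088194-55088493, minus strand), Tsr1 (chr11:74897830-74898129, plus strand), Mybbp1a (chr11:72441077-72441376, plus strand) and Imp4 (chr1:34439579-34439878, plus strand).
Hspd1: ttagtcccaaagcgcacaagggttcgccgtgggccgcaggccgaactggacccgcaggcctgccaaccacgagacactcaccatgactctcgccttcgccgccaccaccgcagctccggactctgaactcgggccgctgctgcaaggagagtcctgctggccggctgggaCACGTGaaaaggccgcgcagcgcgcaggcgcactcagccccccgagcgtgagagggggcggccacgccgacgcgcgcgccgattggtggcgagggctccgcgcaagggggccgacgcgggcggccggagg
Tsr1: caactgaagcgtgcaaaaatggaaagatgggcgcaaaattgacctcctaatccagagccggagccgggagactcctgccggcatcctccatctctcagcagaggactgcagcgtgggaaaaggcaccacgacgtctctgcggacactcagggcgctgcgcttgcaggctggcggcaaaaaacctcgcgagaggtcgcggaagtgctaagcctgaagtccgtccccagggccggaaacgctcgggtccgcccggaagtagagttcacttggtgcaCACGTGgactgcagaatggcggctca
Mybbp1a: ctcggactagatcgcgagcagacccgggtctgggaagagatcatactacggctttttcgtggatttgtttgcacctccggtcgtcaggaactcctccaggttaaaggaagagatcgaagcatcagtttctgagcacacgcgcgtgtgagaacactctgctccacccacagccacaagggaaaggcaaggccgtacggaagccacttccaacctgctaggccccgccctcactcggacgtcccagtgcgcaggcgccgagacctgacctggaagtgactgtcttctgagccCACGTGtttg
Imp4: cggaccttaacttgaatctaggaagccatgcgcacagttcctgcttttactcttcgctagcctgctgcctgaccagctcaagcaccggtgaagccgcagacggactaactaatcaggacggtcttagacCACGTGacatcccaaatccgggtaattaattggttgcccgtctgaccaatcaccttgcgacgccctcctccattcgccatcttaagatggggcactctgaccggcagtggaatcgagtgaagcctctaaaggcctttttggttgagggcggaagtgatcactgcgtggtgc
The motif began 80 bases before the annotated start in Hspd1 and 121 before it in Imp4, and 24 bases after it in Tsr1 and 40 after it in Mybbp1a. The other Hspd1 window lacked these letters, as did that of Hspe1, its neighbour on the opposite strand. A match of letters is a description and not a measured binding site.

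Interferon treatment in Jak2VF cells was followed by higher levels of genes from most steps of ribosome assembly. Of the 45 genes, 21 were higher and 0 lower at an adjusted p under 0.05 (limma, Benjamini-Hochberg over all genes), where 6.51% of all 9680 genes were called higher and 9.46% lower. The estimate was positive for 45 of 45, and the median log2 change was 0.46, against 0.00 over all genes. For 29 genes all 4 interferon arrays lay above all 4 vehicle arrays, as they did for 14% of all genes. The called genes lay among polymerase I subunits (1 of 3), small subunit factors (7 of 12), large subunit factors (5 of 13), nucleolar chaperones and regulators (4 of 6) and metabolic and chaperonin Myc target genes (4 of 5). None of the 3 box C/D or the 3 box H/ACA proteins was called. Without Jak2VF interferon replicate 4, 13 genes were called. Centring every array on the median of all 25697 probes moved the median of all genes to 0.56 and that of the 45 to 1.15. Under it all 21 genes lost their calls and 1 other gene of the 45 was called. Centring on the median of the probes that passed gave 21 calls, but Mybbp1a, Ddx21, Srm and Hspe1 lost theirs.

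Polr1a, the largest subunit of RNA polymerase I, had log2 intensities of 11.09, 10.96, 11.21 and 11.41 in Jak2VF cells with interferon, against 10.72, 10.54, 10.62 and 10.66 in Jak2VF cells with vehicle. The 2 groups did not overlap, and the log2 change was 0.53, SE 0.11, adjusted p = 0.00575, or 1.45-fold. Its other passing probes changed by 0.19 and 0.56, and the call was lost with the mean of all passing probes. The remaining polymerase I subunits were not called, with log2 levels of 11.29 ± 0.12 against 11.17 ± 0.08 (SD, n = 4) for Polr1c, which polymerase III also uses, and 10.56 ± 0.17 against 10.45 ± 0.12 for Polr1e, also called PAF53.

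Fbl, or fibrillarin, is the methyltransferase of the box C/D particles that direct methylation of ribosomal RNA. It stood at 12.41, 13.00, 12.98 and 13.13 with interferon, against 12.41, 12.46, 12.01 and 12.40 with vehicle, and replicate 1 with interferon lay no higher than the vehicle arrays (log2 change 0.56, SE 0.22, adjusted p = 0.1). Gar1, a core protein of the box H/ACA particles that direct pseudouridylation, stood at 12.69, 12.82, 12.91 and 13.14 with interferon, against 12.44, 12.54, 12.24 and 12.50 with vehicle. Its groups did not overlap, and its adjusted p missed the threshold (log2 change 0.46, SE 0.15, adjusted p = 0.0517).

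The small subunit factors carried the most calls. Nol10, whose yeast counterpart Enp2 is part of the small subunit processome, stood at 10.41, 10.26, 10.63 and 10.86 with interferon, against 9.60, 9.63, 9.60 and 9.87 with vehicle (log2 change 0.86, SE 0.17, adjusted p = 0.00415). Rrp12, known in yeast for the export of pre-ribosomal subunits, stood at 10.97, 10.81, 11.21 and 11.20 with interferon, against 10.33, 10.27, 10.30 and 10.42 with vehicle (log2 change 0.72, SE 0.15, adjusted p = 0.00461). Tsr1, a late small subunit maturation factor whose promoter is shown above, stood at 9.26, 9.03, 9.28 and 9.32 with interferon, against 8.38, 8.70, 8.30 and 8.62 with vehicle (log2 change 0.72, SE 0.15, adjusted p = 0.00542). In all 3 genes every interferon array exceeded every vehicle array. Wdr75, the counterpart of yeast Utp17 that links transcription of the precursor to its processing, was likewise separated, at 10.91 to 11.07 with interferon, against 10.32 to 10.39 with vehicle (log2 change 0.63, SE 0.13, adjusted p = 0.00495). Rrp9, Noc4l and Utp15 were also called. Imp3, which binds the U3 small nucleolar RNA with Imp4, showed the smallest difference of all, with 12.45, 12.50, 12.33 and 12.37 with interferon, against 12.28, 12.42, 12.52 and 12.35 with vehicle.

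Among the large subunit factors, Wdr74, which acts in late nuclear maturation of the subunit, stood at 10.69, 10.81, 10.85 and 11.02 with interferon, against 9.87, 10.08, 9.73 and 10.14 with vehicle. The groups did not overlap, and the log2 change was 0.89, SE 0.19, adjusted p = 0.00706, or 1.85-fold. Bop1, the scaffold of the complex that also holds Pes1 and Wdr12, stood at 10.96, 10.77, 10.86 and 11.18 with interferon, against 10.46, 10.24, 10.40 and 10.45 with vehicle (log2 change 0.55, SE 0.13, adjusted p = 0.0114). Its partner Pes1 was not called and its groups overlapped, at 9.09 to 9.46 with interferon, against 8.81 to 9.15 with vehicle. Gnl3, or nucleostemin, a nucleolar GTPase, stood at 11.95 to 12.55 with interferon, against 11.46 to 11.87 with vehicle (log2 change 0.58, SE 0.17, adjusted p = 0.0319). With array brightness in the model Bop1 (adjusted p = 0.0518) and Gnl3 (adjusted p = 0.142) were not called. Rrs1, an assembly factor, had the widest gap of all 45 genes, at 8.27, 8.52, 8.21 and 8.39 with interferon, against 7.06, 7.33, 7.28 and 7.50 with vehicle, and was not called. The model pooled the spread of all 4 groups, and the WT vehicle arrays of Rrs1 had an SD of 1.08 (n = 4), with replicate 3 at 5.16.

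Among the nucleolar proteins, Npm3, a histone chaperone of the nucleoplasmin family, differed most in proportion to its spread. It stood at 13.99, 14.02, 14.14 and 14.14 with interferon, against 13.41, 13.35, 13.47 and 13.47 with vehicle (log2 change 0.65, SE 0.09, adjusted p = 0.000594). Npm1, or nucleophosmin, the abundant ribosome chaperone of the same family, stood at 14.92, 14.98, 15.41 and 14.93 with interferon, against 14.64, 14.64, 14.61 and 14.81 with vehicle. Its groups were apart, replicate 3 with interferon lay well above the rest, and it was not called (log2 change 0.39, SE 0.14, adjusted p = 0.078), with a change of −0.046 when arrays were centred on the passing probes. Smaller rises passed the test in Ncl (nucleolin, log2 change 0.38, SE 0.12, adjusted p = 0.0409), the helicase gene Ddx21 (0.39, SE 0.12, adjusted p = 0.037) and Mybbp1a, a Myb-binding nucleolar regulator (0.39, SE 0.12, adjusted p = 0.0336). With array brightness in the model none of Ncl, Ddx21 and Mybbp1a was called (adjusted p = 0.0701, 0.0883 and 0.127). Of 16 fits that left out 1 array, Ncl kept its call in 6, Ddx21 in 8 and Mybbp1a in 10.

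Of the metabolic and chaperonin Myc target genes, Odc1, the rate-limiting enzyme of polyamine synthesis, stood at 12.89, 12.87, 12.79 and 12.84 with interferon, against 12.20, 12.32, 12.13 and 12.26 with vehicle (log2 change 0.62, SE 0.11, adjusted p = 0.00226). Srm, the spermidine synthase that acts downstream of it, stood at 13.02, 12.66, 12.98 and 12.89 with interferon, against 12.52, 12.33, 12.08 and 12.37 with vehicle (log2 change 0.56, SE 0.17, adjusted p = 0.0359). Hspd1, the mitochondrial chaperonin, stood at 13.42, 13.55, 13.79 and 13.57 with interferon, against 12.76, 12.92, 12.59 and 12.92 with vehicle (log2 change 0.79, SE 0.16, adjusted p = 0.00445). None of these groups overlapped. The cochaperonin gene Hspe1 was called as well. It kept this call with array brightness in the model, but in only 4 of 16 fits that left out 1 array. Srm kept its call in 10 of these fits and lost it with brightness in the model (adjusted p = 0.16). Cad, which starts pyrimidine synthesis, was not called, at 9.28 to 9.69 with interferon, against 8.95 to 9.17 with vehicle.

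**Figure D2:**
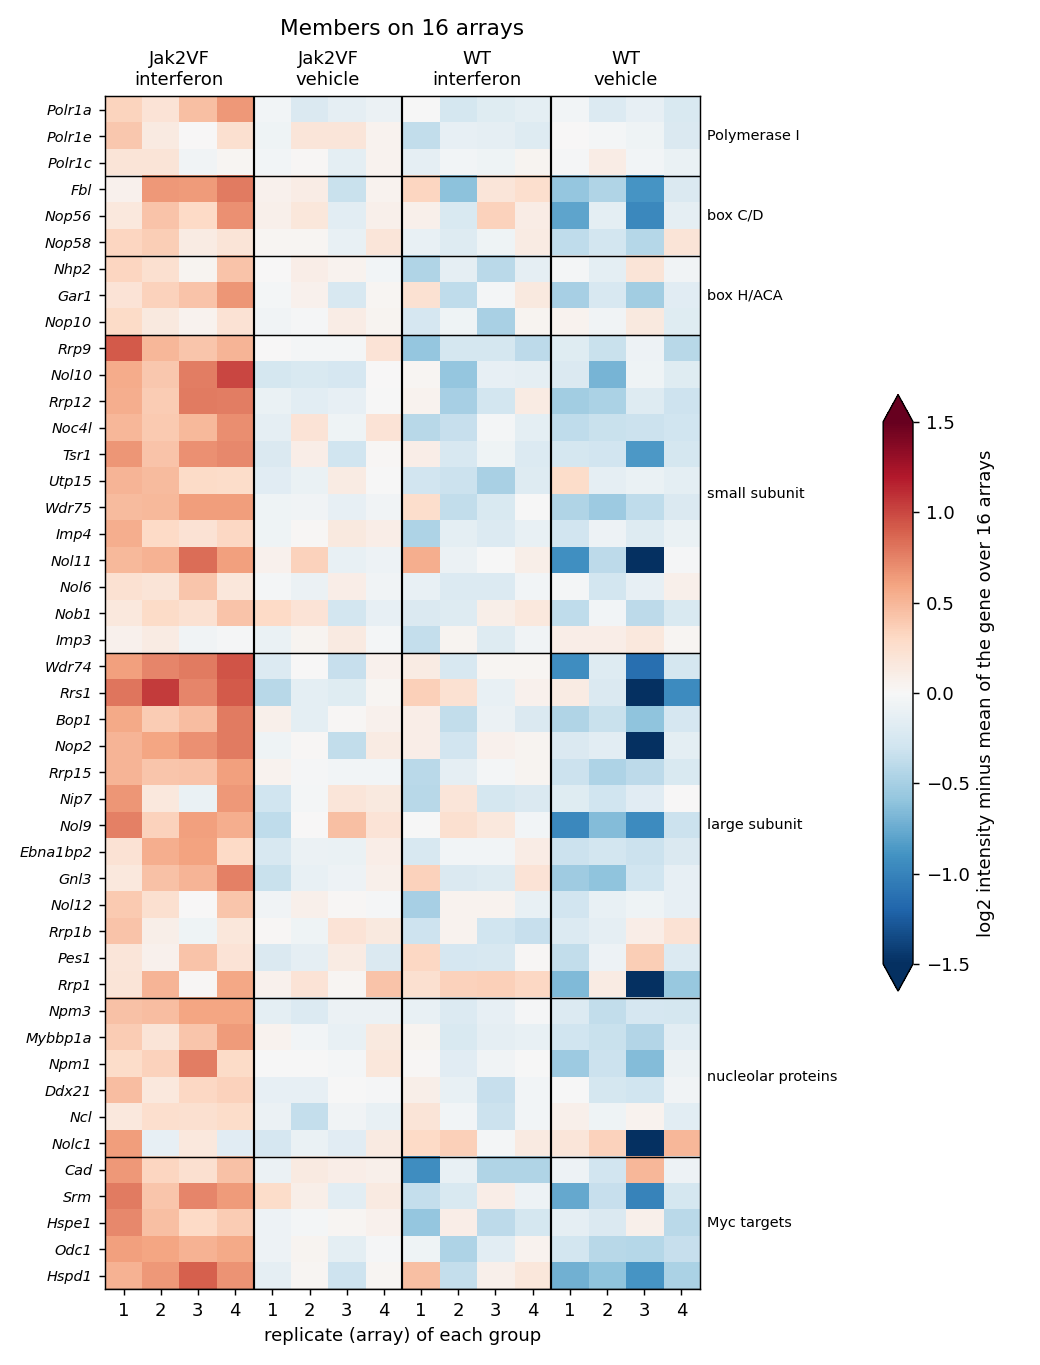
Each row is a gene and each column an array, and the colour gives log2 intensity minus the gene's mean over 16 arrays, ending at 1.5 in either direction, with rows grouped by role. The 4 Jak2VF interferon columns are red in most rows, and WT vehicle replicate 3, the dimmest array, holds the darkest blue cells.

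In WT cells fewer of the genes passed the test under interferon. Of the 45, 2 were higher and 0 lower, where 1.26% of all genes were called higher and 1.01% lower. The estimate was positive for 30 of 45, with a median log2 change of 0.20, against 0.05 over all genes. The unadjusted p was under 0.05 for 17 of the 45, as it was for 3081 of all 9680 genes. For 4 genes all interferon arrays lay above all vehicle arrays, as they did for 5.6% of all genes. The interferon arrays were the brighter ones, and with array brightness in the model 0 genes were called and the median was 0.06. Centring on the median of all probes moved the median of all genes to 1.12 and that of the 45 to 1.46, with 43 calls, and centring on the passing probes left 0 calls.

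The mitochondrial chaperonin gene Hspd1 stood at 13.34, 12.54, 12.97 and 13.06 in WT cells with interferon, against 12.18, 12.29, 12.01 and 12.41 in WT cells with vehicle (log2 change 0.75, SE 0.16, adjusted p = 0.0321). Nol9, a polynucleotide kinase of ribosomal RNA processing, stood at 6.48, 6.73, 6.65 and 6.45 with interferon, against 5.52, 5.84, 5.55 and 6.16 with vehicle (log2 change 0.81, SE 0.18, adjusted p = 0.0359). These were the 2 called genes, and in both every interferon array exceeded every vehicle array. Nol9 is dim and was detected on 2 of 4 vehicle arrays, and its log2 change turned to −0.081 with centring on the passing probes. The Hspd1 call was lost without any 1 of 6 arrays and the Nol9 call without any 1 of 8.

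In several other genes the WT vehicle arrays were spread widely. Nol11, a small subunit factor, stood at 8.87, 8.24, 8.32 and 8.41 with interferon, against 7.41, 7.93, 6.42 and 8.30 with vehicle, where replicate 3 was not detected (log2 change 0.94, SE 0.30, adjusted p = 0.0733). Nop56, a core box C/D protein, stood at 10.74, 10.44, 11.00 and 10.78 with interferon, against 9.88, 10.51, 9.70 and 10.52 with vehicle, where replicates 1 and 3 were low (log2 change 0.59, SE 0.19, adjusted p = 0.0787). Of the 15 genes with a negative estimate, Cad had the most negative, at 8.10, 8.92, 8.58 and 8.58 with interferon, against 8.96, 8.75, 9.53 and 8.96 with vehicle. Without WT interferon replicate 2, 1 of the 3 dimmest arrays, 11 genes were called, 1 of them lower. There were 6 calls without WT vehicle replicate 2 and 8 without WT vehicle replicate 4.

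Under interferon, at least 1 gene of every role but the box C/D proteins was higher in Jak2VF than in WT cells. Of the 45 genes, 25 were higher and 0 lower, where 7.62% of all genes were called higher and 10.1% lower. The estimate was positive for 44 of 45, and the median log2 difference was 0.51, against 0.01 over all genes. For 30 genes all Jak2VF arrays lay above all WT arrays, as they did for 13.2% of all genes. By role, 2 of 3 polymerase I subunits, 0 of 3 box C/D and 1 of 3 box H/ACA proteins, 9 of 12 small subunit factors, 4 of 13 large subunit factors, 4 of 6 nucleolar proteins and 5 of 5 metabolic and chaperonin Myc target genes were called. This comparison and that of interferon in Jak2VF cells share the Jak2VF interferon arrays, and 19 genes were called in both, 27 in either and 18 in neither. With array brightness in the model 29 genes were called, including all 25. Centring on the median of all probes left 0 calls, with medians of 0.33 for all genes and 1.10 for the 45, and centring on the passing probes gave 36 calls.

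**Figure D3:**
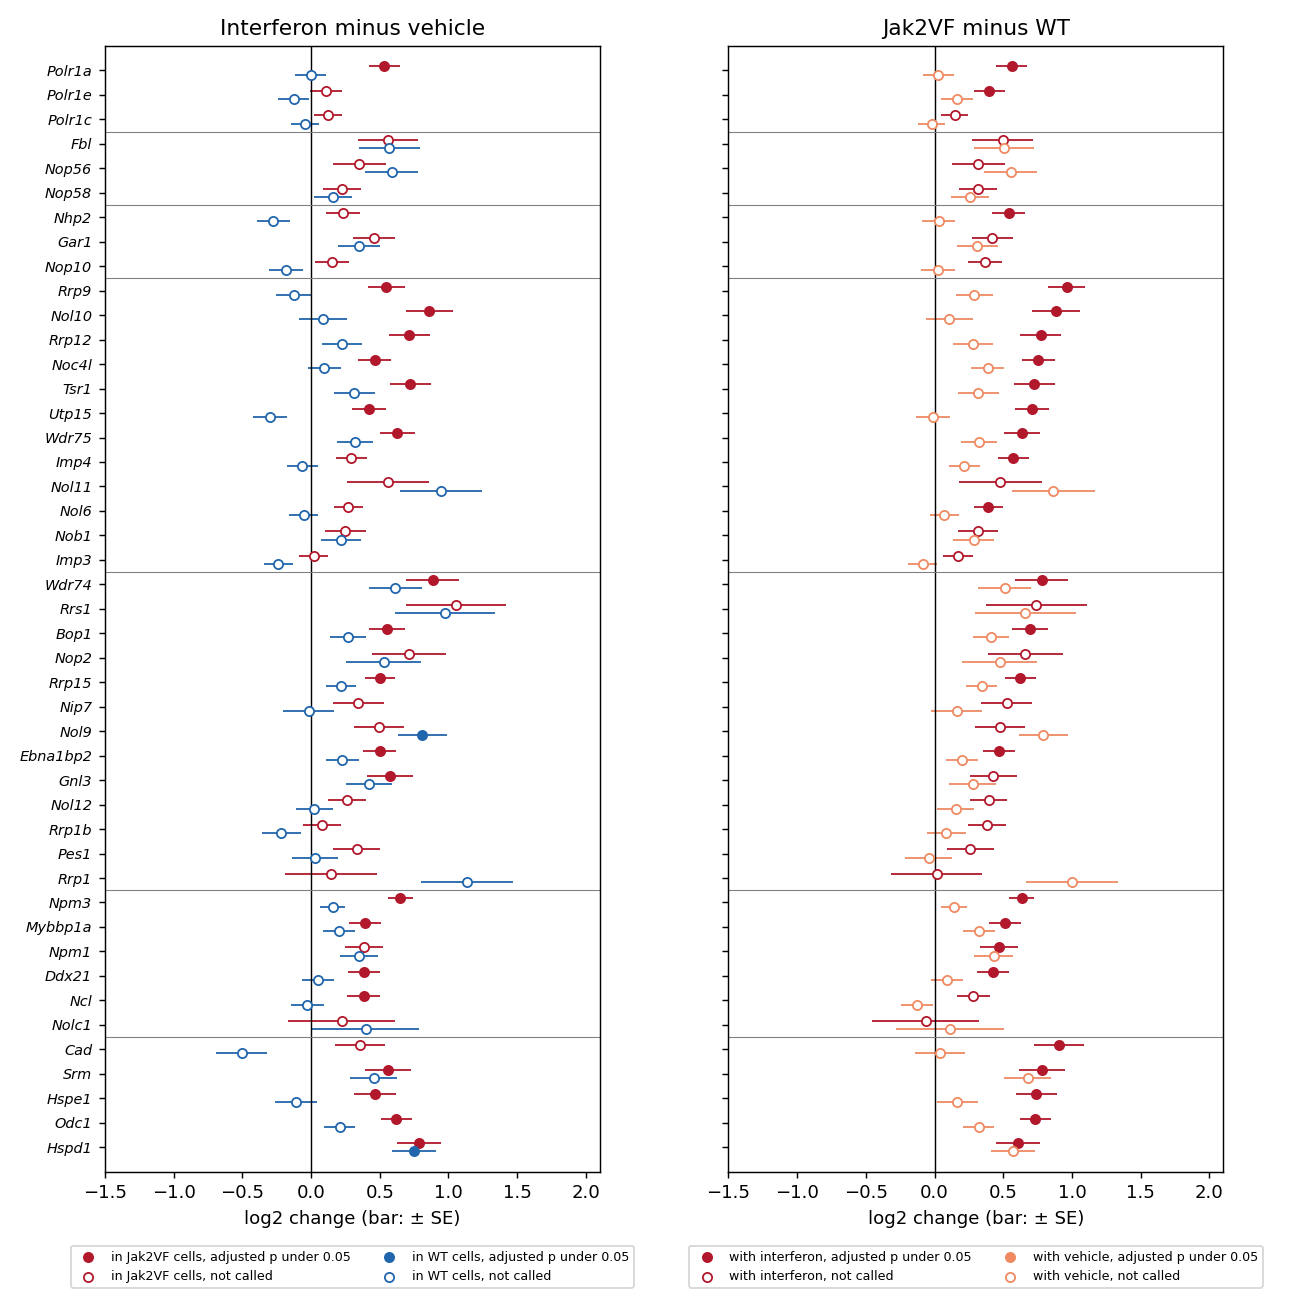
Points give each gene's log2 change with a bar of ± SE, interferon minus vehicle on the left and Jak2VF minus WT on the right, with filled points for an adjusted p under 0.05. On the left 21 red points (Jak2VF cells) and 2 blue points (WT cells) are filled, and on the right 25 points with interferon and 0 with vehicle.

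Rrp9, a protein specific to the U3 particle of the small subunit processome, differed most. It stood at 10.87, 10.45, 10.37 and 10.46 in Jak2VF cells with interferon, against 9.36, 9.69, 9.69 and 9.55 in WT cells with interferon (log2 difference 0.96, SE 0.13, adjusted p = 0.000307), a 1.95-fold difference. Nol10 stood at the Jak2VF levels given above, against 9.89, 9.28, 9.74 and 9.72 in WT cells with interferon (log2 difference 0.88, SE 0.17, adjusted p = 0.00298). Noc4l, whose yeast counterpart matures the small subunit, stood at 10.78, 10.68, 10.78 and 10.98 in Jak2VF cells, against 9.87, 9.95, 10.26 and 10.14 in WT cells (log2 difference 0.75, SE 0.12, adjusted p = 0.000724). No WT array reached the lowest Jak2VF array in these 3 genes. Rrp12 differed by 0.77, SE 0.15, adjusted p = 0.0024, and Tsr1 by 0.73, SE 0.15, adjusted p = 0.00435. Imp4, Nol6, Utp15 and Wdr75 were also called, and Imp4 stood at 11.72 to 12.05 in Jak2VF cells, against 11.05 to 11.40 in WT cells.

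The polymerase I subunit Polr1a differed by 0.56, SE 0.11, adjusted p = 0.00334 and Polr1e by 0.40, SE 0.11, adjusted p = 0.0249. Nhp2, a box H/ACA core protein, stood at 12.50, 12.41, 12.21 and 12.60 in Jak2VF cells with interferon, against 11.72, 12.04, 11.77 and 12.03 in WT cells with interferon (log2 difference 0.54, SE 0.12, adjusted p = 0.00676). The box C/D protein Nop58 had groups that did not overlap, at 12.72 to 12.97 in Jak2VF cells, against 12.40 to 12.71 in WT cells, and was not called (log2 difference 0.32, SE 0.14, adjusted p = 0.137). For the large subunit factors the difference was 0.78, SE 0.19, adjusted p = 0.0116 for Wdr74, 0.69, SE 0.13, adjusted p = 0.00225 for Bop1 and 0.62, SE 0.11, adjusted p = 0.00147 for Rrp15, and Ebna1bp2 was called too. Rrp1 was level between the genotypes, with 7.66 ± 0.26 in Jak2VF cells and 7.64 ± 0.05 in WT cells (SD, n = 4).

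Cad separated the genotypes under interferon, with 9.69, 9.35, 9.28 and 9.47 in Jak2VF cells, against 8.10, 8.92, 8.58 and 8.58 in WT cells (log2 difference 0.90, SE 0.18, adjusted p = 0.00368). Hspe1 stood at 12.70, 12.43, 12.28 and 12.36 in Jak2VF cells, against 11.40, 12.08, 11.59 and 11.72 in WT cells (log2 difference 0.74, SE 0.15, adjusted p = 0.00366). The remaining metabolic and chaperonin Myc target genes differed by 0.78, SE 0.17, adjusted p = 0.0055 for Srm, 0.73, SE 0.11, adjusted p = 0.000568 for Odc1 and 0.61, SE 0.16, adjusted p = 0.0167 for Hspd1. All 5 were thus higher in Jak2VF cells, with groups that did not overlap. Of the nucleolar proteins, Npm3 differed by 0.63, SE 0.09, adjusted p = 0.000396, Mybbp1a by 0.51, SE 0.12, adjusted p = 0.00747 and Npm1 by 0.47, SE 0.14, adjusted p = 0.0321. Ncl was not called (0.28, SE 0.12, adjusted p = 0.127), and its WT interferon replicate 1, at 11.83, lay within the Jak2VF range of 11.79 to 11.91.

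**Figure D4:**
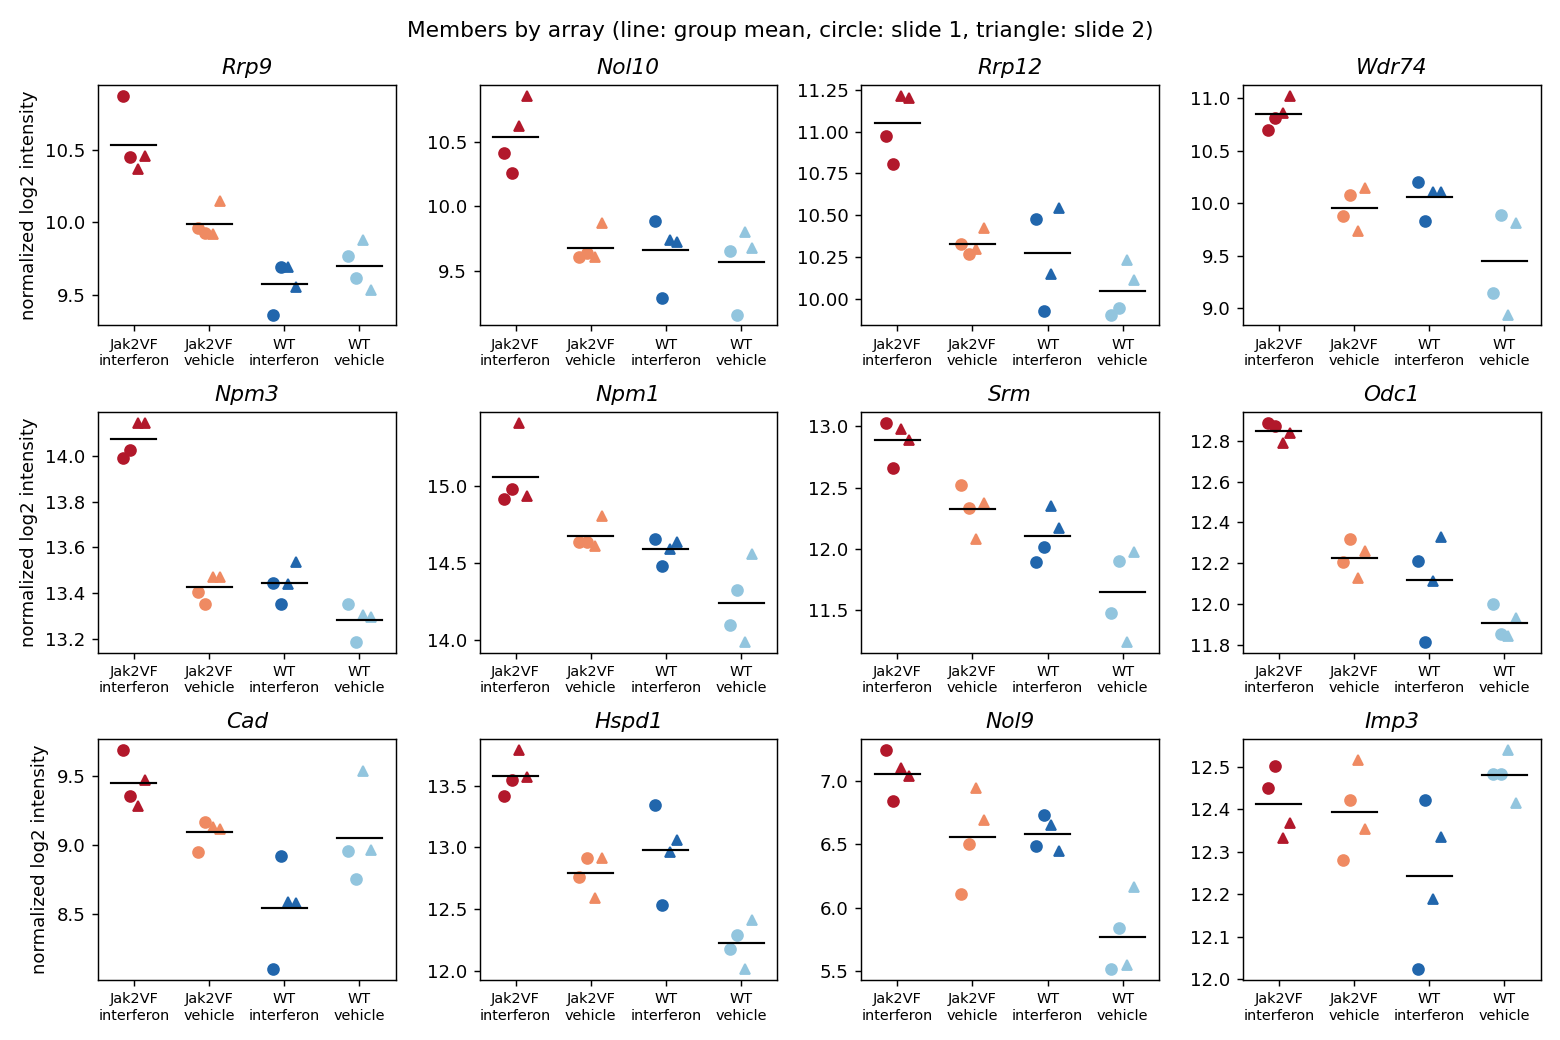
Normalized log2 intensity of 12 genes on each array, by group, with a line at the group mean and symbols for the slide; each panel has its own vertical axis, which does not start at 0. In Rrp9, Nol10, Rrp12, Wdr74, Npm3, Npm1, Srm, Odc1 and Hspd1 the 4 Jak2VF interferon arrays lie above the other 12, whereas in Cad, Nol9 and Imp3 an array of another group reaches into their range.

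Without interferon, no gene passed the test between the genotypes. Of the 45 genes, 0 were called higher and 0 lower in limma, where 0.31% of all genes were called higher and 0.114% lower. The unadjusted p was under 0.05 for 16 of the 45, as it was for 2016 of all 9680 genes. The estimate was positive for 40 of 45, with a median log2 difference of 0.28, against 0.04 over all genes. For 13 genes all Jak2VF arrays lay above all WT arrays, as they did for 5.66% of all genes. Srm stood at 12.52, 12.33, 12.08 and 12.37 in Jak2VF cells with vehicle, against 11.48, 11.90, 11.25 and 11.98 in WT cells with vehicle. Its groups did not overlap, and the difference missed the threshold (0.68, SE 0.17, adjusted p = 0.0993). Noc4l (0.39, SE 0.12, adjusted p = 0.14) and Hspd1 (0.57, SE 0.16, adjusted p = 0.126) were likewise separated and not called. Nol9 stood at 6.11, 6.50, 6.94 and 6.69 in Jak2VF cells, against 5.52, 5.84, 5.55 and 6.16 in WT cells, with 1 Jak2VF array inside the WT range (0.79, SE 0.18, adjusted p = 0.0792), and centring on the passing probes turned this to −0.10. With array brightness in the model 0 genes were called and the median was 0.18, and with centring on all probes 0 were called with medians of 0.89 for all genes and 1.34 for the 45. Leaving out 1 array gave 4 calls without WT vehicle replicate 4, 3 without WT vehicle replicate 2 and 1 without Jak2VF vehicle replicate 1.

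Whether interferon acted differently in the genotypes was tested by the difference of its changes, Jak2VF minus WT. Of the 45 genes 0 were called, where 0.093% of all genes were called higher and 0.0207% lower. The unadjusted p was under 0.05 for 14 of the 45, as it was for 1361 of all 9680 genes. The median difference was 0.28 on the log2 scale, against −0.07 over all genes, and 39 estimates were positive, but centring on all probes turned the median to −0.28. So the 21 calls in Jak2VF and the 2 in WT cells do not show a difference in response for any single gene. The smallest adjusted p belonged to Utp15, which stood at 8.72 ± 0.12 against 8.30 ± 0.13 (SD, n = 4) in Jak2VF cells, interferon against vehicle, and at 8.01 ± 0.12 against 8.31 ± 0.20 in WT cells (difference 0.72, SE 0.17, adjusted p = 0.0962). Cad (0.86, SE 0.26, adjusted p = 0.162), Polr1a (0.54, SE 0.16, adjusted p = 0.159) and Npm3 (0.49, SE 0.13, adjusted p = 0.115) had larger estimates in Jak2VF cells and missed the threshold as well. For Hspd1 (0.03, SE 0.23, adjusted p = 0.961), Npm1 (0.04, SE 0.20, adjusted p = 0.949) and Srm (0.11, SE 0.24, adjusted p = 0.861) the estimates lay near 0, with standard errors of 0.20 to 0.24, and these 3 and Polr1a turned negative with centring on all probes. Rrp1 had the most negative estimate (−0.99, SE 0.47, adjusted p = 0.363), and its WT vehicle arrays ran from 5.16 to 7.45 with replicate 3 not detected.

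The genes followed each other over the arrays to different degrees. The Pearson correlation of a gene with the mean of the other 44 genes over 16 arrays, which share their groups and their brightness, had a median of 0.82, and the median for all other genes against the mean of the 45 was 0.08. Tsr1 (0.955), Bop1 (0.954), Odc1 (0.952), Mybbp1a (0.951) and Wdr74 (0.942) followed it most closely. Cad (0.402), Pes1 (0.365), Rrp1b (0.359), Nolc1 (0.314) and Imp3 (−0.096) followed it least. Outside the list, the genes most like the mean were Minpp1 (0.982), Reep6 (0.979), Phb2 (0.976), Nudt5 (0.976) and Mrpl50 (0.976). Minpp1, an inositol polyphosphate phosphatase gene, stood at 10.76 ± 0.26 (SD, n = 4) in Jak2VF cells with interferon, 9.10 ± 0.25 in Jak2VF cells with vehicle, 9.08 ± 0.11 in WT cells with interferon and 8.31 ± 0.21 in WT cells with vehicle. A further 21 passing probes represented 15 of the 45 genes. For called genes they had the same sign as the reported probe in 13 of 13 cases with interferon in Jak2VF cells, in 14 of 14 between genotypes under interferon and in 1 of 1 with interferon in WT cells. With uncalled genes included, all 21 matched in each of the Jak2VF interferon comparisons. The sign matched for 17 of 21 with interferon in WT cells and 18 of 21 between genotypes with vehicle. In the difference of the interferon changes it matched for 14 of 21, and the other Nhp2 probe gave −0.47 against 0.51. With the mean of all passing probes, Polr1a, Noc4l, Ebna1bp2, Ncl, Mybbp1a and Hspe1 lost their calls with interferon in Jak2VF cells. Between genotypes under interferon Ebna1bp2, Mybbp1a and Hspd1 lost theirs, as Hspd1 did with interferon in WT cells.

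Genes outside the 54 that act in the same steps were counted in the same way. Of 27 other small subunit factors measured, 7 were higher with interferon in Jak2VF cells (25.9%, against 6.51% of all genes). In Jak2VF against WT cells under interferon 16 were higher (59.3%, against 7.62% of all genes), and 0 were lower in either comparison. They were led by Utp4, part of the same transcription-linked subcomplex as Utp15 (interferon in Jak2VF cells, 0.85, SE 0.14, adjusted p = 0.0012), and Pwp2, a processome component (genotype under interferon, 0.94, SE 0.13, adjusted p = 0.000325). Of 31 other large subunit factors, 15 were higher with interferon in Jak2VF cells (48.4%) and 18 between genotypes under interferon (58.1%). Nmd3, the export adaptor of the large subunit, changed by 1.07, SE 0.18, adjusted p = 0.0013 in the first of these and 0.92, SE 0.18, adjusted p = 0.00247 in the other. Of 14 genes of the RNA exosome, which trims ribosomal RNA precursors, 2 were higher with interferon in Jak2VF cells (14.3%, against 6.51% of all genes). Between genotypes under interferon 4 were higher (28.6%, against 7.62%), and the nuclease gene Dis3 differed by 1.04, SE 0.14, adjusted p = 0.000313. Of 8 other polymerase I genes, 0 were called with interferon in Jak2VF cells. Between genotypes under interferon 1 was called (12.5%, against 7.62% of all genes), the subunit gene Cd3eap (0.48, SE 0.12, adjusted p = 0.013).

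Of 39 other Myc targets, 12 were higher with interferon in Jak2VF cells (30.8%, against 6.51% of all genes) and 1 in WT cells (2.56%, against 1.26%). In Jak2VF against WT cells under interferon 15 were higher (38.5%, against 7.62%). Mthfd1, an enzyme of folate metabolism, changed most (1.36, SE 0.21, adjusted p = 0.000801 with interferon in Jak2VF cells, 1.51, SE 0.21, adjusted p = 0.000275 between genotypes under interferon), and the WT call was the chaperonin gene Tcp1 (0.84, SE 0.19, adjusted p = 0.036). Of 8 genes of the Myc network itself, 0 were called in any comparison. Myc stood at 7.77, 8.32, 8.53 and 9.10 in Jak2VF cells with interferon, 7.71, 7.92, 7.08 and 8.09 in Jak2VF cells with vehicle, 7.92, 7.23, 8.67 and 7.96 in WT cells with interferon and 4.74, 7.27, 4.79 and 7.53 in WT cells with vehicle, where it was detected on 2 of 4 arrays. Its groups overlapped in each comparison of a pair of groups (interferon in Jak2VF cells 0.73, SE 0.57, adjusted p = 0.437, interferon in WT cells 1.86, SE 0.57, adjusted p = 0.0702, genotype under interferon 0.48, SE 0.57, adjusted p = 0.651, genotype with vehicle 1.61, SE 0.57, adjusted p = 0.163). Of 60 cytosolic ribosomal protein genes, a list taken by symbol after data were seen, 0 were called with interferon in Jak2VF cells, where 6.51% of all genes were higher, and the median log2 change was −0.10. In Jak2VF against WT cells under interferon 3 were called higher (Rpl14, Rplp0 and Rps27a), or 5%, near the 7.62% of all genes, with a median of −0.08.

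**Figure D5:**
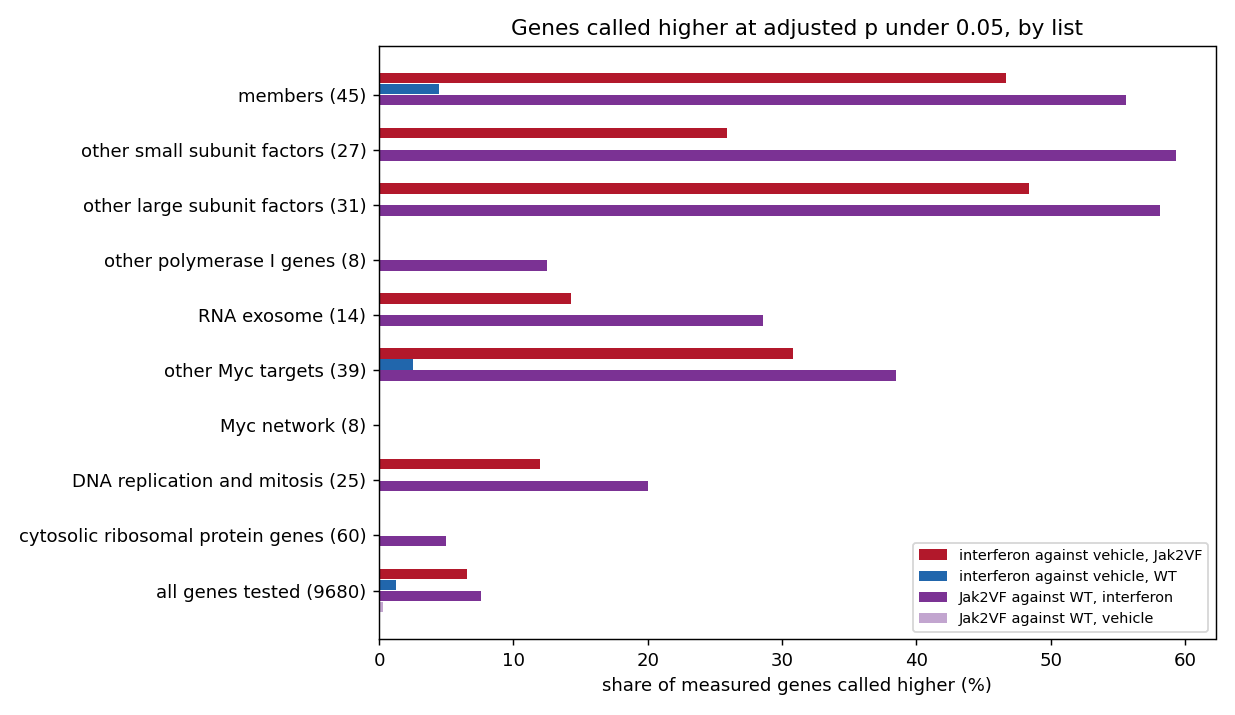
Bars give the share of measured genes called higher at an adjusted p under 0.05 in each list, with the number measured in brackets and a colour for each comparison. The 45 genes reach 46.7% with interferon in Jak2VF cells and 55.6% between genotypes under interferon, against 6.51% and 7.62% of all genes, and the Myc network has no bar.

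Sums of cell type markers also differed between the groups. The summed linear intensity of 18 measured stem cell markers was 10691 to 17677 in Jak2VF cells with interferon, 23033 to 25010 in Jak2VF cells with vehicle, 32200 to 34012 in WT cells with interferon and 27925 to 34100 in WT cells with vehicle. Of these 18, 8 were called lower with interferon in Jak2VF cells (44.4%, against 9.46% of all genes). In Jak2VF against WT cells under interferon 11 were called lower (61.1%, against 10.1%). The sum of 10 megakaryocyte markers was 9504 to 21535 in Jak2VF cells with interferon, 24523 to 30769 in Jak2VF cells with vehicle, 37966 to 50511 in WT cells with interferon and 34392 to 47121 in WT cells with vehicle. Of these 10, 7 were called lower in the first of these comparisons (70%, against 9.46% of all genes) and 8 in the other (80%, against 10.1%).

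The sum of 16 erythroid markers, with Alas2 below the detection filter and Car1 not analysed here, was 30390 to 37842 in Jak2VF cells with interferon, 18665 to 24416 in Jak2VF cells with vehicle, 22042 to 29587 in WT cells with interferon and 15381 to 21093 in WT cells with vehicle. Of these 16, 9 were called higher with interferon in Jak2VF cells (56.2%, against 6.51% of all genes) and 4 in WT cells (25%, against 1.26%). In Jak2VF against WT cells under interferon 7 were called higher (43.8%, against 7.62%) and 1 lower (6.25%, against 10.1%). The estimate was negative for 5 of 16 in each of the Jak2VF interferon comparisons, down to −0.57 against Jak2VF vehicle and −1.23 against WT interferon. Klf1, the erythroid transcription factor, stood at 11.84 to 12.26 on the log2 scale in Jak2VF cells with interferon, 10.35 to 11.03 in Jak2VF cells with vehicle, 10.27 to 10.95 in WT cells with interferon and 9.15 to 9.74 in WT cells with vehicle. Of 25 DNA replication and mitosis genes, 3 were called higher with interferon in Jak2VF cells (12%, against 6.51% of all genes) and 5 in Jak2VF against WT cells under interferon (20%, against 7.62%).

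Markers of mature cells were summed as well. Those of granulocytes and monocytes (13 of 16 measured) came to 10129 to 11857 in Jak2VF cells with interferon, 16758 to 67982 in Jak2VF cells with vehicle, 19389 to 26480 in WT cells with interferon and 27873 to 88368 in WT cells with vehicle. With interferon 4 were called lower in Jak2VF cells (30.8%, against 9.46% of all genes) and 2 in WT cells (15.4%, against 1.01%). Between genotypes under interferon 2 were lower (15.4%, against 10.1%). Markers of mast cells, basophils and eosinophils (10 of 12 measured) came to 1474 to 3179 in Jak2VF cells with interferon, 8951 to 21553 in Jak2VF cells with vehicle, 2798 to 4767 in WT cells with interferon and 10637 to 35405 in WT cells with vehicle. In the same 3 comparisons 6, 4 and 2 of them were called lower (60%, 40% and 20%, against 9.46%, 1.01% and 10.1% of all genes). For B and plasma cells 4 of 8 markers were measured, and the sums were 252 to 436 in Jak2VF cells with interferon, 777 to 1344 in Jak2VF cells with vehicle, 558 to 774 in WT cells with interferon and 1138 to 2064 in WT cells with vehicle. For T and NK cells 3 of 10 were measured, with the Cd3 genes, Cd4, Cd8a, Gzma and Ncr1 below the filter, and the sums were 2292 to 3591 in Jak2VF cells with interferon, 5078 to 6849 in Jak2VF cells with vehicle, 4648 to 6662 in WT cells with interferon and 6233 to 6616 in WT cells with vehicle. The part of these cell type markers in the changes of the 45 genes was not tested.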

How the data were processed

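The deposited table gave, per the file headers, an average bead signal intensity and a detection p-value for each of 25697 probes on 16 Illumina arrays. Per the labels, RNA was extracted with the PicoPure kit and amplified with the Illumina TotalPrep kit. No source used here names the scanner software or a background step. A further deposited table held normalized intensities on a linear scale, judged from its values, with no method named, and was used as an alternative.

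Intensities were background-corrected with normexp from the detection p-values, then quantile-normalized on a log2 scale (limma 3.58.1 neqc, offset 16, R 4.3.3). Probes detected at p under 0.05 on at least 4 arrays were kept (13374), with the brightest passing probe for each of 9680 genes. Older symbols were updated through the RefSeq table of GRCm38.p6 (7082 probes), which put 27 of the 45 measured genes under the listed spelling and 18 under older names. The linear model held a mean for each of the 4 groups and used all 16 arrays (12 residual degrees of freedom), with Benjamini-Hochberg adjustment over all genes and a threshold of 0.05. The number of arrays limits the precision. The genes and lists were chosen with earlier results of these data known. Statistics are given for the called genes of largest change, overall and by role, for the gene of smallest p in a role without calls, and always for Hspd1, Srm, Ncl and Npm1.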

Additional observations from a re-analysis of the deposited data

Results flagged for a closer look

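In 128 sets of 4 arrays (31 named genes and the mean of the 45, in each group), 9 had 1 array far from its group, judged by its gap to the nearest other array as a share of the group's range. Chance gives about 1 in 20. Npm1 did so in Jak2VF cells with interferon (0.866 of the range, replicate 3 at 15.41, the others 14.92 to 14.98) and in Jak2VF cells with vehicle (0.852, replicate 4 at 14.81, the others 14.61 to 14.64). In Jak2VF cells with vehicle, replicate 4 was also high in Nol10 (0.883, at 9.87 against 9.60 to 9.63) and Rrp9 (0.831, at 10.15 against 9.92 to 9.96), and replicate 3 was low in Fbl (0.869, at 12.01 against 12.40 to 12.46) and Wdr75 (0.877, at 10.32 against 10.38 to 10.39). In WT cells with interferon, replicate 2 was low in Fbl (0.851, at 11.73 against 12.53 to 12.67). In WT cells with vehicle, replicate 3 was low in Tsr1 (0.956, at 7.74 against 8.31 to 8.34) and replicate 1 high in Utp15 (0.884, at 8.61 against 8.19 to 8.24).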

How the results depend on the processing

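Depth on an array is its signal over background, and 4 arrays a group and the dim WT vehicle arrays limit every count here. No paired analysis was possible because the replicate numbers were given in accession order. The counts that follow are of the 45 genes called, in the order interferon in Jak2VF cells, interferon in WT cells and genotype under interferon (21, 2 and 25 as reported), and the genotype comparison with vehicle and the difference had 0 calls except where given. They were 26, 5 and 32 without background correction, where 1 gene was called in the difference. They were 24, 3 and 30 in the authors' deposited values, 19, 1 and 25 without the detection filter, and 26, 2 and 31 for genes detected on all 16 arrays, where 2 were called in the difference. They were 19, 2 and 25 with the slide as a block, and 0, 0 and 0 within slide 1 and within slide 2, where fewer arrays enter. They were 16, 2 and 24 with the mean of passing probes, where 1 was called with vehicle. They were 28, 1 and 32 without the 3 dimmest arrays, 16, 0 and 29 with brightness as a covariate, and 26, 0 and 27 with only the groups compared. With the listed spelling only, 13, 2 and 14 of 27 were called. Leaving out 1 array gave 13 to 26, 0 to 11 and 22 to 29, 0 to 4 with vehicle and 0 for the difference. Of the 21 genes, 13 passed under every such fit, as did 20 of the 25 and 0 of the 2. Centring on all probes gave 1, 43 and 0, and centring on passing probes, chosen after that result was seen, 21, 0 and 36.

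Values with the opposite sign follow, and their cause was not tested. With centring on all probes they were 1.31 for Polr1e and 1.24 for Ncl (interferon in WT), 0.97 for Ncl (vehicle), and in the difference −0.28 for the median, −0.072 for Polr1a, −0.10 for Ncl, −0.59 for Npm1, −0.496 for Srm and −0.479 for Hspd1. With centring on passing probes they were 0.054 for Polr1e, −0.081 for Nol9 and −0.059 for Npm1 (interferon in WT), −0.046 for Npm1 (interferon in Jak2VF), and −0.10 for Nol9 and 0.031 for Ncl (vehicle). On slide 1 they were 0.074 for Ncl (interferon in WT) and −0.046 for Npm1 and −0.061 for Hspd1 (difference). They were −0.029 for Hspd1 with the mean of probes (difference), 0.013 for Polr1e and −0.00476 for Gar1 with brightness (interferon in WT), and 0.057 for Ncl (interferon in WT) and 0.029 for Nop56 (difference) without the 3 dimmest arrays. Leaving out 1 array gave −0.11 to 0.063 for Ncl (interferon in WT) and, in the difference, −0.079 to 0.12 for Npm1, −0.0038 to 0.24 for Srm and −0.11 to 0.16 for Hspd1.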
